A study of Mus musculus with 21 samples.

Results

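The Kruppel-like factors described here are 8 genes, Klf2, Klf4, Klf6, Klf7, Klf9, Klf10, Klf13 and Klf15, followed in RNA-seq of mouse midbrain under MPTP and irisin. They were picked by gene name, and all 8 were found among the 33829 genes of the pre-treatment table and the 55385 genes of the delayed treatment table. All 8 passed the filter on low counts in both experiments, with between 117 counts (the lowest, Klf10) and 14956 counts (the highest, Klf9) in a mouse. The genes were named with results of these data already known, and which values led to the choice is not recorded. The contrasts of the pre-treatment experiment, where Klf2 stood out, are therefore given for the members as a description with no p-value, and tests are given for the delayed treatment experiment, with the reservation that the choice may have drawn on it too.

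The 21 mice were male C57BL/6 at 6 weeks of age, 3 in each of 7 groups, for which the labels name no genetic change, and all injections were intraperitoneal. MPTP, a toxin that is converted to an inhibitor of mitochondrial complex I and damages dopaminergic neurons, was given at 30 mg/kg per day for 5 days, and irisin, the circulating fragment of FNDC5, at 200 µg/kg per day for 5 days. In the pre-treatment experiment, 3 control mice had ddH2O for 10 days, 3 MPTP mice had ddH2O for 5 days and then MPTP, and 3 irisin-MPTP mice had irisin for 5 days and then MPTP. In the delayed treatment experiment, 3 control mice had ddH2O for 10 days, 3 irisin mice had ddH2O and then irisin, 3 MPTP mice had MPTP and then ddH2O, and 3 MPTP-irisin mice had MPTP and then irisin. MPTP was thus the last injection in the pre-treatment experiment and was followed by 5 further days of injections in the delayed one, so the order of injection and the experiment cannot be told apart. Nigral tissue was dissected by hand from perfused brains, which the labels call midbrain, so each library holds all the cells of the piece, and fewer cells of a type cannot be told apart from less RNA per cell.

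Kruppel-like factors are transcription factors with zinc fingers at the C terminus that bind GC-rich and CACCC sequences. Klf2 and Klf4 are best known in endothelium, where laminar shear stress induces them through the MEK5-ERK5-MEF2 pathway, and Klf4 also in stem cells and glia. Klf6 and Klf7 promote axon growth in neurons, Klf9, Klf13 and Klf15 respond to glucocorticoids in several tissues, and Klf10 was found as a gene induced early by TGF-beta. In GRCm38 coordinates of the deposited tables, the genes lie at chr8:72319033-72321656 (Klf2, + strand), chr4:55527143-55532466 (Klf4, - strand), chr13:5861482-5870394 (Klf6, + strand), chr1:64029447-64121491 (Klf7, - strand), chr19:23141226-23168134 (Klf9, + strand), chr15:38291463-38300706 (Klf10, - strand), chr7:63886351-63938915 (Klf13, - strand) and chr6:90462576-90475238 (Klf15, + strand).

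The promoters of Klf2, Klf4 and Klf6 are shown because these genes had the same order of groups in the pre-treatment experiment. RefSeq promoter windows (GRCm38.p6, 250 bases before to 50 after the start) were found for 7 of the 8 members. Each sequence below is the stretch from 250 to 51 bases before the start, read 5′ to 3′ on the gene's strand, at chr8:72318812-72319011 for Klf2, chr4:55532526-55532725 for Klf4 and chr13:5861239-5861438 for Klf6. Capitals mark TGACG, the core of the cAMP response element, on either strand and, in Klf2, a MEF2 site.
Klf2: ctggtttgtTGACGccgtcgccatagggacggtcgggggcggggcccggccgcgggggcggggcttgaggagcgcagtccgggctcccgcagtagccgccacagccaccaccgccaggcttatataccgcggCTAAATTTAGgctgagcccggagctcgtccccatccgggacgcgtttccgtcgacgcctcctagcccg
Klf4: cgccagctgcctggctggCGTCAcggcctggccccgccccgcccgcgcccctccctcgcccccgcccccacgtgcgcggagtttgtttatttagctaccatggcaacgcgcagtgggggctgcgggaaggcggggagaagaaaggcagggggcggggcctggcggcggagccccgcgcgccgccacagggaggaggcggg
Klf6: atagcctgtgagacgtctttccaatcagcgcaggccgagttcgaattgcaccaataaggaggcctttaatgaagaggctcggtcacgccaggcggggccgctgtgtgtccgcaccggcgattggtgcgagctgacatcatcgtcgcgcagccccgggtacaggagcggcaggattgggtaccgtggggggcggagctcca

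The MEF2 site CTAAATTTAG, from 118 to 109 bases before the start, is in the Klf2 window and in no other member window, and 3.19% of all 32851 windows hold a MEF2 site. TGACG was in 5 of 7 member windows (Klf2, Klf4, Klf9, Klf13 and Klf15) against 20.8% of all windows. GGGCGG was in 6 of 7 against 35.7%, and CACCC in 5 of 7 against 57.5%. Both strands were searched, and the TGACG search includes any full TGACGTCA. The members' windows held between 58.3% and 74.3% G and C, against a median of 52.7% over all windows. TGACGTCA, the glucocorticoid response element, the heat shock element and the CArG box were in none of the 7 windows and in 1.79%, 0.475%, 7.80% and 1.63% of all windows. A match gives letters in a window and no evidence of binding.

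Libraries held 66653781 to 75637604 counts in the 9 mice of the pre-treatment experiment and 48843585 to 77203445 counts in the 12 mice given the delayed design. Markers of dopaminergic neurons (Th, Slc6a3 and 5 others) were present in every mouse. Their summed level was 454 to 578 CPM (counts scaled to the size of the library) after MPTP against 667 to 701 CPM in the controls of the delayed experiment. In the pre-treatment experiment it was 529 to 846 against 513 to 815 CPM, and 529 to 619 CPM in irisin-MPTP mice, and the groups overlapped. Markers of choroid plexus were uneven, at 7.14 to 23.6 summed CPM in 8 of the 9 pre-treatment mice and 1610 in MPTP mouse 2, and from 37.3 to 1627 in the delayed experiment.

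Levels between genes are compared in FPKM, which allows for gene length. Klf9 had the highest mean in all 7 groups, at 30.1 ± 1.52 FPKM (SD, n = 3) in the pre-treatment controls, and overlapped the next member, Klf13, only in the delayed controls. In the pre-treatment controls Klf6 (8.38 FPKM), Klf13 (7.95), Klf15 (6.79), Klf2 (6.02) and Klf7 (5.54) followed, and each overlapped the next in this order. Klf4 (1.85) and Klf10 (0.816) were lowest and separate from their neighbours. After MPTP in that experiment Klf2 took the second place with 12.7 ± 1.69 FPKM, overlapping Klf13, and after irisin and MPTP it was sixth with 2.67 ± 0.462 FPKM, overlapping neither neighbour.

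**Figure D1:**
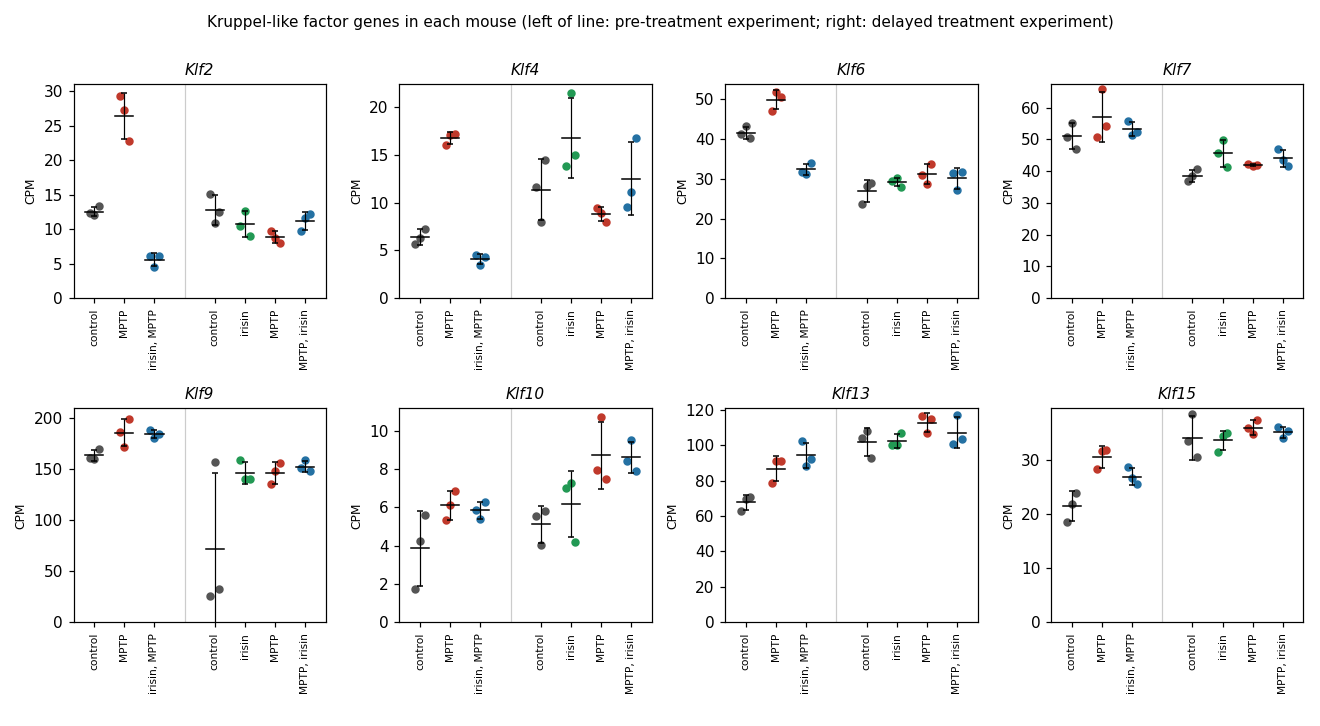
CPM of each Kruppel-like factor gene (y axis, from 0) in the 21 mice (points), by group (x axis), with the mean (line) and SD (bars, cut at 0); the left 3 groups are the pre-treatment experiment and the right 4 the delayed one. Klf2 and Klf4 are high in the left MPTP group and low in the irisin, MPTP group, and Klf9 is at 25.6 and 32.7 CPM in a pair of delayed controls.

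Klf2, Klf4 and Klf6 were higher after MPTP and lower after irisin and MPTP than in the controls of the pre-treatment experiment, with Klf2 differing 4.74-fold between the MPTP and the irisin-MPTP mice. Klf2, which keeps endothelium quiescent, was at 12.4, 12.04 and 13.3 CPM in control mice 1 to 3, at 29.3, 27.3 and 22.7 CPM in MPTP mice, and at 6.11, 4.45 and 6.17 CPM in irisin-MPTP mice. The 3 groups did not overlap, and the lowest MPTP mouse stood well above the highest control. The log2 fold change was 1.07 ± 0.15 (SE) for MPTP against control, -2.24 ± 0.15 for irisin-MPTP against MPTP and -1.17 ± 0.15 for irisin-MPTP against control.

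Klf4, the close relative of Klf2 that shares many of its endothelial targets, was at 5.62, 6.30 and 7.23 CPM in controls, 16.0, 17.1 and 17.2 CPM in MPTP mice, and 4.52, 3.52 and 4.27 CPM in irisin-MPTP mice. The order of the groups was that of Klf2, again with no overlap, and the 3 MPTP mice lay closer together. The log2 fold changes were 1.39 ± 0.14 for MPTP against control, -2.03 ± 0.14 for irisin-MPTP against MPTP and -0.64 ± 0.14 for irisin-MPTP against control.

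Klf6, an injury-induced factor that supports axon regrowth, was at 41.3, 43.3 and 40.3 CPM in controls, 47.1, 51.9 and 50.6 CPM in MPTP mice and 31.8, 31.2 and 34.0 CPM in irisin-MPTP mice. The same order held with smaller distances, and the groups did not overlap. The log2 fold changes were 0.26 ± 0.07, -0.63 ± 0.07 and -0.36 ± 0.07 for the same 3 contrasts, which share their groups and are not independent of each other.

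Klf7, the close relative of Klf6, stayed between 47.0 and 65.9 CPM in the 9 mice. Its controls (50.8, 55.1 and 47.0 CPM), MPTP mice (50.8, 65.9 and 54.3 CPM) and irisin-MPTP mice (55.8, 51.5 and 52.4 CPM) overlapped in every contrast. The log2 fold change of irisin-MPTP against MPTP was -0.10 ± 0.11.

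The members known to respond to glucocorticoids did not follow Klf2. Klf13 was at 62.8, 69.5 and 70.7 CPM in controls, 78.4, 90.8 and 91.2 CPM in MPTP mice, and 102, 88.1 and 92.2 CPM in irisin-MPTP mice. Klf15, which controls amino acid and lipid use, was at 18.5, 21.9 and 23.9 CPM in controls, 28.3, 31.7 and 31.8 CPM in MPTP mice and 28.6, 26.7 and 25.6 CPM in irisin-MPTP mice. Both were above the controls, without overlap, in the MPTP and in the irisin-MPTP mice, while these 2 groups overlapped each other. The log2 fold change of Klf13 was 0.36 ± 0.09 for MPTP and 0.48 ± 0.09 for irisin-MPTP against control, and that of Klf15 was 0.51 ± 0.11 and 0.33 ± 0.11.

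Klf9, the most abundant member, was at 161, 159.8 and 169.8 CPM in controls, 186, 172 and 199 CPM in MPTP mice and 189, 181 and 184 CPM in irisin-MPTP mice. The controls were the lowest mice, by a narrow margin. Klf10, a repressor that acts in TGF-beta signalling, was at 1.75, 4.25 and 5.62 CPM in controls, 5.32, 6.12 and 6.87 CPM in MPTP mice and 5.87, 5.37 and 6.29 CPM in irisin-MPTP mice. Control 1 was far below the other mice, and each treated group overlapped the controls. Against control it differed by a log2 fold change of 0.66 ± 0.35 for MPTP and 0.59 ± 0.35 for irisin-MPTP.

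By edgeR's quasi-likelihood test, with p adjusted over the 22641 genes of that experiment, 3 of 8 members (Klf2, Klf4 and Klf6) were called lower in irisin-MPTP against MPTP, where 0.0707% of all genes were called. In MPTP against control 1 (Klf4) was called, against 0.0221% of genes, and in irisin-MPTP against control 1 (Klf2), against 0.0707%. The groups did not overlap for 3, 6 and 6 members in these contrasts, where 14.2%, 11.6% and 13.6% of all genes did not overlap. Nothing is read from these counts, since the choice of members may have used them. The call of Klf6 was lost without MPTP mouse 2 or 3 or without any 1 of the irisin-MPTP mice, which left 2 members, and that of Klf4 against control without control 2, MPTP mouse 1 or MPTP mouse 3, which left 0. The call of Klf2 against control was lost (0 members) without any 1 of the 6 mice.

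**Figure D2:**
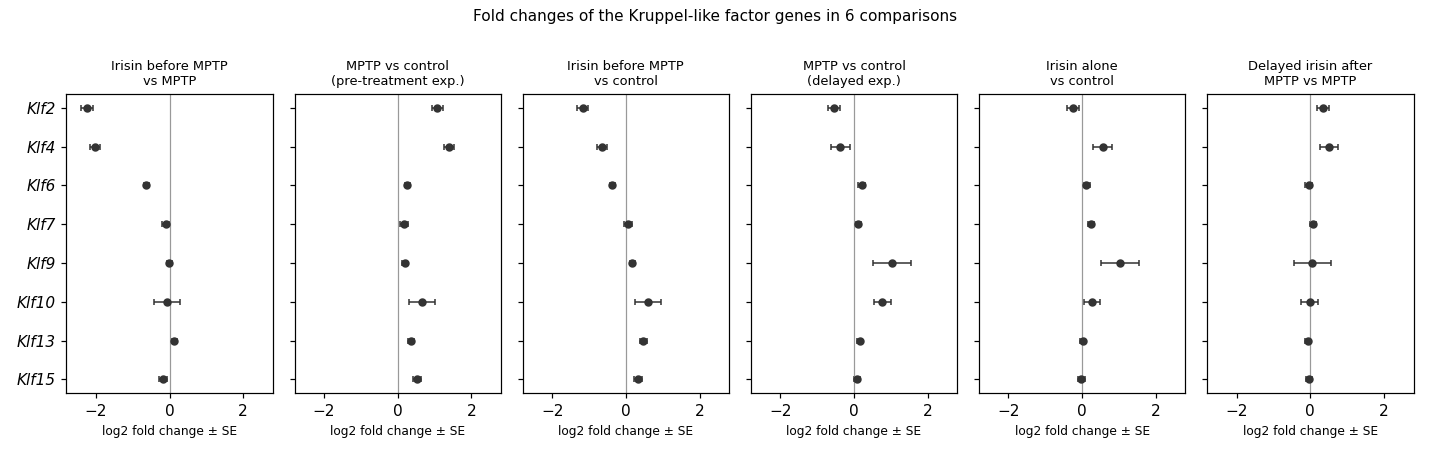
Fitted log2 fold change (x axis) with its standard error (bars) for the 8 genes (y axis) in 6 comparisons (panels). Klf2 and Klf4 lie near -2 in the first panel and between 0.34 and 0.51 in the last; the first 3 panels share mice, as do the last 3.

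Markers of other cells differed between the mice of the pre-treatment experiment. The 9 endothelial markers, of cells in which Klf2 and Klf4 are abundant, summed to 256 to 312 CPM in controls, 260.2 to 272 CPM in MPTP mice and 263 to 277 CPM in irisin-MPTP mice. The groups overlapped, 0 of the 9 were called by edgeR and 1 by DESeq2 in irisin-MPTP against MPTP, and their median log2 fold change in irisin-MPTP against MPTP was 0.03, against 0.003 over all genes. In that contrast 5 of 9 endothelial markers had an unadjusted p under 0.05.

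The 5 blood markers (4 globin genes and Alas2) summed to 529.6 to 826 CPM in controls, 549 to 810.4 CPM in MPTP mice and 231 to 455 CPM in irisin-MPTP mice. The irisin-MPTP mice were lowest, without overlap, the median log2 fold change against MPTP was -0.93 with 5 of 5 negative, and 0 of 5 were called by edgeR or DESeq2, with 5 unadjusted p-values under 0.05 in edgeR. The part of this difference in the Klf2, Klf4 and Klf6 values was not tested. The choroid plexus markers had a median of -2.35 (0 of 5 called by edgeR or DESeq2, 3 with an unadjusted p under 0.05 in edgeR), and they were high in MPTP mouse 2 only (1610 CPM, against 8.06 and 9.95 CPM in MPTP mice 1 and 3). Klf2 was at 29.3, 27.3 and 22.7 CPM in MPTP mice 1 to 3. How far the choroid plexus difference enters the Klf values was not tested. The 7 dopaminergic neuron markers were all negative in irisin-MPTP against MPTP, with a median log2 fold change of -0.55, 0 called by edgeR, 2 with an unadjusted p under 0.05 and 1 called by DESeq2. Against control they were also all negative, with a median of -0.68, 0 called by edgeR, 3 with an unadjusted p under 0.05 and 1 called by DESeq2. The part of these differences in the Klf values was not tested. Of the pericyte, astrocyte, oligodendrocyte, microglial and neuronal markers, 0 were called by edgeR in any comparison, with 0 to 2 unadjusted p-values under 0.05 in a list, and 0 to 1 were called by DESeq2. The summed astrocyte markers were nevertheless lower in irisin-MPTP than in MPTP mice without overlap, at 938 to 1042 against 1078 to 1178 CPM, and the neuronal markers higher, at 4749 to 4835 against 4596 to 4686 CPM. In the delayed experiment astrocyte markers were at 1279 to 1302 CPM in irisin mice against 1387 to 1604 CPM in controls, which the other treated groups overlapped. Neuronal markers there were at 4999 to 5221 CPM in controls. They were lower in irisin (4767 to 4859), MPTP (4704 to 4816) and MPTP-irisin mice (4617 to 4985 CPM).

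**Figure D3:**
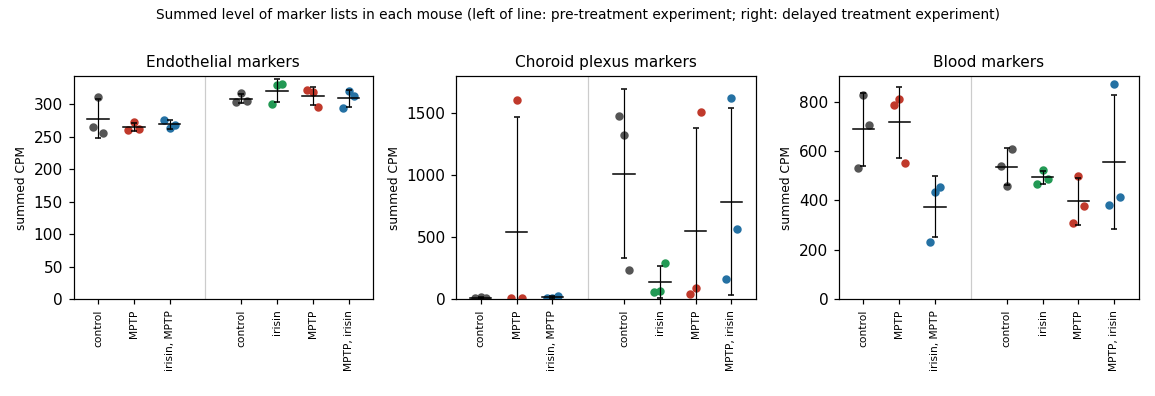
Summed CPM (y axis) of 9 endothelial, 5 choroid plexus and 5 blood markers in each mouse (points) by group (x axis), with mean (line) and SD (bars, cut at 0). Endothelial markers stay between 256 and 332 CPM, choroid plexus markers are high in single mice of several groups, and blood markers are lowest in the irisin, MPTP group of the pre-treatment experiment.

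In the delayed treatment experiment edgeR called 0 of 8 members for MPTP against control (0.132% of 21922 genes were called), for irisin alone (0.109%), for MPTP-irisin against MPTP (0.00456%) and for the interaction of irisin and MPTP (0.0411%). DESeq2 also called 0 in each, and unadjusted p-values under 0.05 in edgeR were found for 2, 1, 0 and 1 members. Klf2 and Klf4 stood in another order than before. Klf2 was at 15.2, 10.9 and 12.4 CPM in controls, 10.4, 12.7 and 8.99 CPM in irisin mice, 9.78, 8.67 and 8.07 CPM in MPTP mice and 9.79, 11.7 and 12.1 CPM in MPTP-irisin mice. The MPTP mice were the lowest group, below all the controls, and MPTP-irisin mouse 1 was level with the highest MPTP mouse. The log2 fold change was -0.54 ± 0.16 for MPTP against control (edgeR adjusted p = 0.393), -0.26 ± 0.16 for irisin alone (adjusted p = 0.655 in edgeR) and 0.34 ± 0.16 for MPTP-irisin against MPTP (adjusted p = 0.9995 in edgeR).

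For Klf2 the irisin effect in MPTP mice minus that in mice without MPTP, the interaction, was 0.60 ± 0.23 on the log2 scale, with an edgeR adjusted p of 0.893 and an unadjusted p of 0.0231. It did not pass the threshold.

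Klf4 was at 11.6, 8.02 and 14.5 CPM in controls, 13.8, 21.5 and 14.96 CPM in irisin mice, 9.46, 8.92 and 8.02 CPM in MPTP mice and 9.58, 11.1 and 16.8 CPM in MPTP-irisin mice. The mice given MPTP alone lay closest together, those of the other 3 groups were spread widely, and irisin mouse 2 was highest. The log2 fold change was -0.37 ± 0.26 for MPTP against control, 0.56 ± 0.26 for irisin alone (edgeR adjusted p = 0.554) and 0.51 ± 0.26 for MPTP-irisin against MPTP, where the nearest mice of the groups were at 9.58 and 9.46 CPM.

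Klf6 and Klf7, the factors tied to axon growth, varied less. Klf6 was at 23.7, 28.1 and 29.0 CPM in controls and between 27.1 and 33.7 CPM in the other 9 mice, with all treated groups overlapping the controls. Klf7 was at 36.8, 38.3 and 40.5 CPM in controls, 45.7, 49.9 and 41.4 CPM in irisin mice, 42.2, 41.5 and 41.9 CPM in MPTP mice and 46.9, 43.4 and 41.7 CPM in MPTP-irisin mice. The control mice were the 3 lowest of the 12. Its log2 fold change was 0.24 ± 0.08 for irisin alone (edgeR adjusted p = 0.474) and 0.12 ± 0.08 for MPTP against control (adjusted p = 0.750 in edgeR).

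Klf10 was at 5.53, 4.02 and 5.82 CPM in controls, 7.04, 7.28 and 4.22 CPM in irisin mice, 7.94, 10.7 and 7.50 CPM in MPTP mice and 8.43, 9.50 and 7.91 CPM in MPTP-irisin mice. Both MPTP groups lay above every control and every irisin mouse. MPTP against control gave a log2 fold change of 0.77 ± 0.23, which did not pass after adjustment (edgeR adjusted p = 0.393, unadjusted p = 0.00616), and for MPTP-irisin against MPTP it was -0.02 ± 0.22.

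Klf13 and Klf15 were nearly level in the delayed experiment. Klf13 lay between 92.7 and 117 CPM in the 12 mice and Klf15 between 30.5 and 38.5 CPM, with every treated group overlapping the controls. For MPTP against control the log2 fold change was 0.15 ± 0.08 for Klf13 and 0.08 ± 0.09 for Klf15, with edgeR adjusted p-values of 0.636 and 0.886. In the controls, which had the same 10 days of ddH2O in both experiments, Klf15 was at 34.2 ± 4.07 CPM here and at 21.4 ± 2.76 CPM in the pre-treatment experiment (SD, n = 3 each), and Klf13 at 102 ± 7.91 and 67.7 ± 4.27 CPM. These tables were made separately, and that difference was not tested.

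Klf9 had 2 levels in the delayed controls. Control 1 was at 25.6 CPM and control 3 at 32.7 CPM, whereas control 2 was at 157 CPM. The irisin mice were at 159, 141 and 140.4 CPM, the MPTP mice at 135, 148 and 157 CPM and the MPTP-irisin mice at 151, 159 and 148 CPM. Control 3 was thus 4.14-fold and control 1 still further below the lowest of the other 10 mice, and control 2 lay within the treated mice. The fit gave a log2 fold change of 1.03 ± 0.52 for MPTP against control and 1.03 ± 0.52 for irisin alone, neither past the threshold (edgeR adjusted p = 0.642 and 0.582).

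The Klf9 result depended on which controls were kept. Over the reported fit and all alternatives, the log2 fold change ran from 0.63 to 2.33 for MPTP and from 0.63 to 2.34 for irisin alone. Its upper end came from leaving out control 2, the only control that lay within the treated mice. Without control 2, so with the low controls 1 and 3 alone, the log2 fold change was 2.33 for MPTP (edgeR adjusted p = 4.59e-05). It was 2.34 for irisin alone (edgeR adjusted p = 3.35e-05) and -2.28 for the interaction (edgeR adjusted p = 0.000318). A mouse below 0.5 of the median was seen for 6.16% of the 10646 genes with a median of at least 10 CPM in the delayed experiment and for 6.51% of 10587 in the pre-treatment one. Klf9 was 1 of 5 genes below 0.5 of the median in delayed controls 1 and 3 alone. Zkscan3, Nadk2, Peak1 and Kctd12 were the others, named after their values were seen. Zkscan3 was also lower in control 2 (45.8 CPM) than in the treated mice (75.2 to 97.5 CPM). Peak1 in control 3 (15.8 CPM) was near the lowest treated mouse (16.1 CPM). Kctd12 was at 0 in control 1 and 24.4 CPM in control 3, against 60.9 CPM in control 2.

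**Figure D4:**
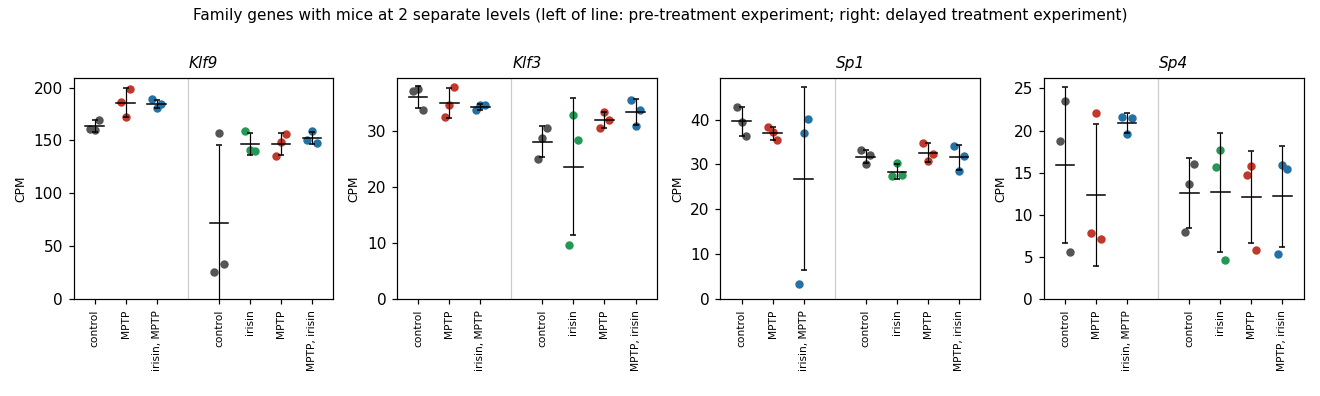
CPM (y axis) of Klf9 and 3 other family genes in each mouse (points) by group (x axis), with mean (line) and SD (bars, cut at 0). Klf9 is low in delayed controls 1 and 3, Klf3 in delayed irisin mouse 1 (9.72 CPM), Sp1 in irisin, MPTP mouse 1 (3.37 CPM) and Sp4 in mice of several groups.

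In the delayed experiment groups did not overlap for 3 members in MPTP against control (Klf2 lower, Klf7 and Klf10 higher), 1 in irisin alone (Klf7) and 2 in MPTP-irisin against MPTP (Klf2 and Klf4, higher), where 16.2%, 15.1% and 10.7% of all genes did not overlap.

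The experiments differed in the values of Klf2 and Klf4, though no test spans the separate tables. After MPTP, Klf2 was higher than in controls in all 3 mice of the first experiment and lower in all 3 of the second. Irisin before MPTP went with less Klf2 and Klf4 than MPTP alone, in every mouse. Irisin after MPTP went with slightly more, but the nearest mice were almost level. They were at 9.79 against 9.78 CPM for Klf2 and 9.58 against 9.46 CPM for Klf4. The difference after delayed irisin did not pass (edgeR adjusted p = 0.9995 for both genes), and 10.7% of all genes did not overlap in that contrast.

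Of the other 18 Kruppel-like and Sp genes listed, the pre-treatment fit tested 15 and the delayed fit 16, and 0 were called in any of the 7 comparisons by edgeR. Unadjusted p-values under 0.05 in edgeR were found for 0 to 2 of them in a comparison, and DESeq2 called 0 to 1. Their median log2 fold change in irisin-MPTP against MPTP was -0.03. Several had single low mice: Sp1, a general activator at GC boxes, was at 3.37 CPM in irisin-MPTP mouse 1 and 35.4 to 42.9 CPM in the other 8 mice, and Klf3, a repressor, at 9.72 CPM in delayed irisin mouse 1 and 25.0 to 35.5 CPM in the other 11.

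Genes upstream of the family did not pass the test in these comparisons. Of 16 inducers and corepressors tested (among them Mapk7, which encodes ERK5, the Mef2 genes, the TGF-beta ligands and receptors, and Piezo1, a mechanically gated channel), 0 were called in any comparison by edgeR or DESeq2, with 1 to 4 unadjusted p-values under 0.05 in edgeR. In irisin-MPTP against MPTP, Piezo1 had a log2 fold change of -0.51 ± 0.22 and Mapk7 of -0.02 ± 0.21. Of 14 known targets of Klf2, Klf4, Klf6, Klf10 or Klf15 that were tested, 0 were called in any comparison by edgeR and 0 to 2 by DESeq2, with 0 to 6 unadjusted p-values under 0.05 in edgeR. In irisin-MPTP against MPTP these targets ran from -0.34 to 0.60 in log2 fold change, with 7 positive and 7 negative. There 2 had an unadjusted p under 0.05 in edgeR and 2 were called by DESeq2. Nos3, the endothelial nitric oxide synthase, and Thbd, the anticoagulant receptor thrombomodulin, are both activated by Klf2. Their log2 fold changes were -0.22 ± 0.12 and 0.11 ± 0.17, and they do not stand for the whole list.

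Immediate early genes, which are induced by activity and stress without new protein, were called in part. All 12 were negative in irisin-MPTP against MPTP, with a median of -1.16. There 4 were called lower by edgeR, which called 0.0707% of all genes, and 8 were called by DESeq2. The edgeR calls were Apold1, an early gene of endothelium (-3.27 ± 0.20, edgeR adjusted p = 0.000926), Atf3 (-3.32 ± 0.35, adjusted p = 0.0172), Fos (-1.88 ± 0.22, adjusted p = 0.0210) and Jun (-0.67 ± 0.07, adjusted p = 0.0195). Against control, Fos, Jun and Apold1 were called lower in irisin-MPTP mice, with log2 fold changes of -1.88, -0.60 and -1.89, and DESeq2 called 7. In MPTP against control of the pre-treatment experiment 8 were positive and 4 negative, with a median of 0.14. In that contrast 0 were called by edgeR (3 with an unadjusted p under 0.05) and 2 by DESeq2. In the delayed experiment 1 of the 12, Apold1, was called, in MPTP against control (-2.56 ± 0.38, edgeR adjusted p = 0.0308), where 10 of 12 were negative and DESeq2 called 5. In MPTP-irisin against MPTP the median was 0.51, and 0 were called by edgeR (6 with an unadjusted p under 0.05) and 2 by DESeq2. The list was written with earlier results of these data known.

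Of the 10 glucocorticoid-responsive genes, 0 were called by edgeR in irisin-MPTP against MPTP and 4 by DESeq2 (7 with an unadjusted p under 0.05 in edgeR), and 1, Plin4, a lipid droplet protein, was called higher in irisin-MPTP against control (4.92 ± 0.46, edgeR adjusted p = 0.0120), where DESeq2 called 5. Zbtb16 (2.30 ± 0.30, edgeR adjusted p = 0.0523) and Fkbp5 (1.40 ± 0.33, edgeR adjusted p = 0.344) did not pass. In MPTP against control of that experiment 10 of 10 were positive with a median of 0.55, and 0 were called by edgeR and 2 by DESeq2 (7 with an unadjusted p under 0.05 in edgeR). In the delayed experiment 0 of 10 were called by edgeR or DESeq2 in any comparison, and 3 had an unadjusted p under 0.05 in MPTP against control. This list, too, was written with earlier results of these data known.

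The members formed separate patterns across mice. With the mean of each experiment removed, the Pearson correlation of log2 CPM over the 21 mice was 0.87 between Klf2 and Klf4, 0.72 between Klf2 and Klf6 and 0.69 between Klf4 and Klf6. Klf13 and Klf15 were correlated at 0.79, and Klf2 and Klf13 at -0.26. These mice share their groups, so the values describe the group differences above as much as single mice.

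**Figure D5:**
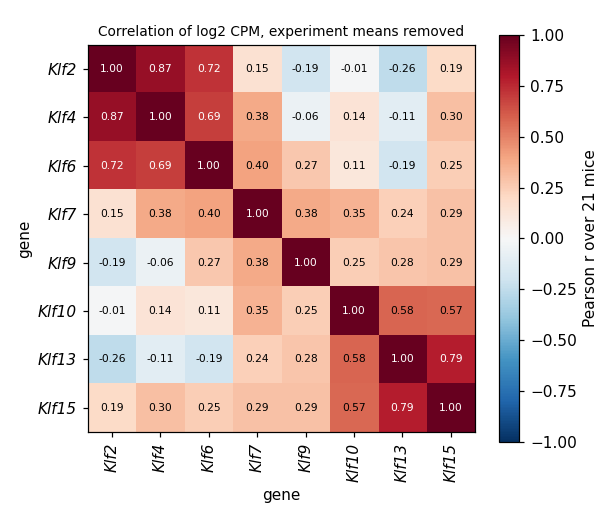
Pearson correlation of log2 CPM between each pair of members over 21 mice after the mean of each experiment was removed (colour scale from -1 to 1). Klf2, Klf4 and Klf6 form one block (0.69 to 0.87) and Klf10, Klf13 and Klf15 another (0.57 to 0.79).

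Among 21153 genes tested in both experiments, the 3 most like Klf2 were Klf4 (0.868), Nes (0.832), the intermediate filament nestin, and Fos (0.828). For Klf4 they were Atf3 (0.886), Klf2 and Nes (0.861). In the pre-treatment experiment Nes was at 11.0 to 14.8 CPM in controls, 21.03 to 29.5 CPM in MPTP mice and 8.47 to 8.89 CPM in irisin-MPTP mice. Atf3, a stress-induced factor, was at 1.10 to 1.83, 4.35 to 6.30 and 0.316 to 0.746 CPM in these groups. Nes and Atf3 separated the 3 groups in the order that Klf2 did, but they were picked by correlation over these same mice. Fos was at 21.3 to 34.4, 28.4 to 31.5 and 6.22 to 9.89 CPM in these groups. Its controls and MPTP mice overlapped.

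For Klf6 the most alike genes were Elovl6 (0.863), Plaur (0.862), the urokinase receptor, and Hspa1b (0.843), a heat shock protein. For Klf13 they were Smim3 (0.837), Sulf2 (0.835) and Ada (0.834). For Klf15 they were Rhpn2 (0.840), Slc2a1 (0.813), the glucose transporter of the blood-brain barrier, and Spsb1 (0.808). Slc2a1 was at 85.5 to 105 CPM in the pre-treatment controls and 208 to 256 CPM in the delayed ones. The mean of each experiment was removed before correlating, so this gap between separately made tables does not enter the correlation. It was not tested.

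For Klf7 they were Zbtb20 (0.872), Slain1os (0.860) and Zyg11b (0.851), for Klf9 Bub1b (0.851), Gm21093 (0.844) and Msl2 (0.835), and for Klf10 Ifi204 (0.804), H2-Aa (0.794) and Gm15956 (0.789). The values for Klf9 rest largely on delayed controls 1 and 3. No p-value is given, since each gene was picked as the highest of all.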

How the data were processed

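RNA of 21 mice was sequenced (Illumina NovaSeq) from dissected nigral tissue. The authors deposited 1 table per experiment with gene counts and FPKM side by side. Per the methods, reads were counted with featureCounts, and the submitters' processing notes name HISAT, StringTie, edgeR and mm9, whereas the coordinates of the deposited tables are those of GRCm38. Whether counting used strand is not given in the sources used here. Klf7, Klf9 and Klf13 overlap small genes with few counts. The authors' own comparison columns were not used.

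Deposited counts were tested with edgeR 4.0.16 (quasi-likelihood, TMM factors 0.972 to 1.02, filterByExpr with a minimum count of 10 and a total of 15) in R 4.3.3. All groups of an experiment entered 1 fit, which left 22641 genes (pre-treatment) and 21922 (delayed). P-values were Benjamini-Hochberg adjusted over all of them, with a threshold of 0.05, and CPM used TMM library sizes. The fit was tested on simulated data. Alternatives were DESeq2 1.42.0, another scaling, no filter, only the groups compared, a replicate block, each mouse left out, and limma 3.58.1 on deposited FPKM as log2(FPKM + 1), log2(FPKM + 0.1) or with a mean FPKM filter of 1. Correlations used log2 CPM after a prior of 0.1 CPM.

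The members, lists and motifs were chosen with earlier results of these data known. Named genes are the 8 members, list genes that were called or changed most, and the 3 genes most correlated with each member. Some list genes are also named with their role though they changed little, such as Mapk7, and others for single low mice. A replicate is a mouse as labelled. Replicates differed by more than counting noise in all 21 pairs (smallest chi-square per gene 36.9). Intervals and p-values cover the spread between 3 mice a group.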

Additional observations from a re-analysis of the deposited data

Results flagged for a closer look

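The same contrast pointed in opposite directions in the 2 experiments for Klf2 and Klf4. For the values given next, every mouse of one group lay beyond every mouse of the other in each experiment. Klf2 in MPTP against control had a log2 fold change of 1.07 where MPTP was the last injection and -0.54 where ddH2O followed it. For Klf2 the change of irisin with MPTP against MPTP alone was -2.24 when irisin came first and 0.34 when it came after, and for Klf4 it was -2.03 and 0.51. Klf4 in MPTP against control also changed sign (1.39 and -0.37), but its groups overlapped in the delayed experiment. Over all genes, 11.6% and 16.2% did not overlap in MPTP against control of the pre-treatment and delayed experiments. For irisin with MPTP against MPTP alone these shares were 14.2% and 10.7%. The difference between experiments was not tested, since the tables were made separately, and the contrasts of each gene share the MPTP mice within each experiment. In the delayed experiment the nearest mice of the MPTP and MPTP-irisin groups were at 9.46 and 9.58 CPM for Klf4 and at 9.78 and 9.79 CPM for Klf2. None of these delayed contrasts was called by edgeR.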

How the results depend on the processing

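Fold changes of single members were recomputed 440 times under settings that kept every mouse. Of these values 0 changed direction, 13 changed their side of the threshold, and 12 moved by more than the spread between mice. The 12 were from limma on log2(FPKM + 1), a scale that shrinks low genes. In MPTP against control of the pre-treatment experiment the members called were 1 in the reported fit and 3 with DESeq2 (Klf2, Klf4 and Klf15). In irisin-MPTP against control they were 1 in the reported fit, 4 with DESeq2 (Klf2, Klf4, Klf6 and Klf13), and 0 with all genes of any count, with only the groups compared, with limma on log2(FPKM + 1) and with limma on genes of a mean FPKM of at least 1. The cause was not tested. The share of all genes that DESeq2 called is not given, so its counts, for members and lists, are not set against all genes.

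With the replicate number as a block, irisin-MPTP against MPTP had 2 members called (Klf2 and Klf4), and both contrasts against control of the pre-treatment experiment had 0. As above, nothing is read from calls in the pre-treatment experiment under any setting, since the choice of members may have used them. No pairing is given by the labels, and same-numbered mice did not deviate together (r of -0.093 to 0.127 over 9 pairs and -0.077 to 0.037 over 18 pairs), with 4 of 9 and 0 of 12 mice closest to their own number. The block changed no count in the delayed experiment.

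With each mouse left out in turn, the members called were 2 to 3 in irisin-MPTP against MPTP, 0 to 1 in MPTP against control and 0 to 0 in irisin-MPTP against control, and in the delayed experiment 0 to 1 in MPTP against control, irisin alone and the interaction, the 1 being Klf9 without control 2 (3 values). Of 384 fold changes of single members with a mouse left out, 17 changed their side of the threshold and 22 changed direction, for members near 0. In the delayed experiment the log2 ranges were -0.044 to 0.065 (Klf13) and -0.094 to 0.078 (Klf15) under irisin alone, -0.10 to 0.023 (Klf6) and -0.12 to 0.16 (Klf10) in MPTP-irisin against MPTP, and -0.33 to 0.17 (Klf4) and -0.11 to 0.058 (Klf15) in the interaction. In irisin-MPTP against MPTP of the pre-treatment experiment they were -0.18 to 0.018 (Klf7), -0.062 to 0.044 (Klf9) and -0.15 to 0.033 (Klf10).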
